A study of Homo sapiens with 8 samples.

Results

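The integrated stress response and its amino acid genes are described here, as 42 genes of the 48162 listed for each library. They were chosen by symbol from a fixed list: 6 regulators, 6 feedback and stress outputs, 3 secreted factors, 10 enzymes of amino acid and folate metabolism, 5 amino acid transporters and 12 genes of tRNA charging and export. Where a symbol had several rows, the row with the highest mean was kept. All 42 symbols were present, and all 42 had a mean of at least 1 FPKM (reads scaled to gene length and library size) and were tested among 14311 such genes.

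The study asked what the long noncoding RNA NMR does in esophageal squamous cell carcinoma, by lowering and raising it in the established cell lines KYSE70 and KYSE450. Total RNA was sequenced in 8 libraries, 1 for each line and condition, from cells at passages 5 to 10 per the labels. In the knockdown arm, lentivirus made in HEK 293T cells infected the cells, giving a knockdown library and its control in each line. In the overexpression arm, the plasmid PCDNA3.1 was transfected with a Lipofectamine reagent, giving an overexpression library and its control. The controls are called the lentiviral control and the plasmid control below. The sources used here do not give the time from delivery to harvest, any selection, or the content of the control vectors. NMR itself is not analysed here, so neither manipulation was checked by the level of its target. Separate cultures are not stated in the labels, so each p-value measures only the spread between these libraries. Depth, as whole reads recovered from the deposited values, was 26401805 to 37937856 reads per library. Leukocyte markers summed to 0.198 to 1.39 FPKM per library, endothelial markers to 0.742 to 4.29 FPKM and fibroblast markers to 27.1 to 52.3 FPKM. The KYSE70 knockdown library stood apart in 2 measures: mitochondrially encoded genes took 8.63% of its FPKM, against 3.84 to 5.75% elsewhere, and its difference from its control fell with GC content (Spearman rho -0.483 across genes, against -0.107 to 0.0969 for the other pairs).

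In the integrated stress response, kinases that sense lack of amino acids, unfolded protein, heme shortage or double-stranded RNA phosphorylate the translation initiation factor eIF2. General translation slows, while the mRNA of the transcription factor ATF4 is translated better, so ATF4 protein can change without its mRNA. ATF4, with partners of the C/EBP family, switches on genes that import and make amino acids, charge tRNAs, and feed back on the response. In tumours this programme is known for helping cells through shortage of amino acids.

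ATF4 with a C/EBP partner is known to bind composite elements of the form TGATGNAA, and the reference promoters are shown because several members carry such letters close to their start. RefSeq windows (GRCh38.p14) from 250 bases before to 50 after each gene's start were searched for TGATGNAA or, on the other strand, TTNCATCA. At least 1 window was held for 36 of the 42 genes and 14 of them had a match, which is 38.9%; of all 27305 genes with windows, 1217 had one, which is 4.46%. The matches were most frequent among the charging and export genes, with 7 of 11. Stretches of 60 bases follow for 13 of these genes, 5′ to 3′ on the gene's strand, ending no more than 30 bases after the start, with the matching letters in capitals. In SLC3A2, the other gene with a match, the letters lie past that limit.
ATF3, chr1:212565190-212565249, plus strand: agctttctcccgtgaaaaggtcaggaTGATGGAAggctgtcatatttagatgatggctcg
CEBPG, chr19:33374045-33374104, plus strand: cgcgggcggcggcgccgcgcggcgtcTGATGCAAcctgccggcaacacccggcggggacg
CHAC1, chr15:40953236-40953295, plus strand: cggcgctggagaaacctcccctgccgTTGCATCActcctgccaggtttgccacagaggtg
FGF21, chr19:48755444-48755503, plus strand: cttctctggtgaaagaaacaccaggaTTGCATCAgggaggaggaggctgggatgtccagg
ASNS, chr7:97872443-97872502, minus strand: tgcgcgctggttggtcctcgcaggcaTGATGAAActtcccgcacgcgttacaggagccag
SLC7A1, chr13:29595659-29595718, minus strand: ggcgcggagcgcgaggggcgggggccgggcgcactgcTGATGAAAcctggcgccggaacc
GARS, chr7:30594819-30594878, plus strand: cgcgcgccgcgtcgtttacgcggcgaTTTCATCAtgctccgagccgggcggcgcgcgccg
NARS, chr18:57621807-57621866, minus strand: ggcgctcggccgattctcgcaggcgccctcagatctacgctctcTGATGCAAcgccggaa
MARS, chr12:57488038-57488097, plus strand: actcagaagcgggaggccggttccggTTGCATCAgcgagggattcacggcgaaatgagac
AARS, chr16:70289660-70289719, minus strand: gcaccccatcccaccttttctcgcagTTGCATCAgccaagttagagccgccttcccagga
CARS, chr11:3057394-3057453, minus strand: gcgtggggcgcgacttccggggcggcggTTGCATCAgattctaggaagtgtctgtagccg
TARS, chr5:33440935-33440994, plus strand: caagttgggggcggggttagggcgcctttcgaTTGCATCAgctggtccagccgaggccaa
IARS, chr9:92293677-92293736, minus strand: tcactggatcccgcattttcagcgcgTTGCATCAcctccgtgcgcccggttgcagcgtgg
The 8 matching letters read TTGCATCA in CHAC1, FGF21, MARS, AARS, CARS, TARS and IARS, and the same element on the opposite strand, TGATGCAA, in CEBPG and NARS. A match is a description of the reference letters and not evidence of binding in these cells.

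The 42 genes together were most abundant in the lentiviral libraries. In KYSE70 they took 0.996% of all FPKM in knockdown cells and 1.02% in their control, and 0.706% in overexpressing cells and 0.686% in theirs. The KYSE450 shares were 0.994% in knockdown cells and 1.42% in their control, and 0.851% in overexpressing cells and 0.692% in theirs. Both lentiviral libraries thus lay above both plasmid libraries in each line, and the KYSE450 lentiviral control lay above all other libraries. In bulk RNA, fewer cells with a gene on and less RNA per cell cannot be told apart.

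**Figure D1:**
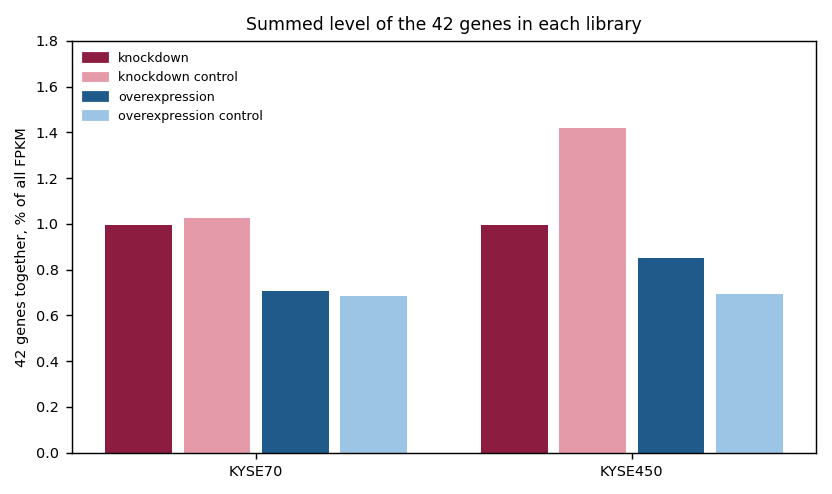
Summed level of the 42 genes as a percentage of all FPKM (y axis) in each of the 8 libraries, grouped by cell line (x axis), with 1 bar per library and no error bars because each condition was sequenced once per line. In KYSE450 the bars read 0.994% for knockdown, 1.42% for its control, 0.851% for overexpression and 0.692% for its control.

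By gene, most of the 42 were higher in the lentiviral arm. Both lentiviral libraries exceeded both plasmid libraries, in both lines, for 29 of the 42 genes, where 20% of all genes tested did so; the reverse held for 0 of the 42, against 10.6% of all genes. Within single lines the count was 35 in KYSE70, against 42.7% of all genes, and 33 in KYSE450, against 35.2%. With all 4 lentiviral libraries set against all 4 plasmid libraries and cell line as a term, limma called 23 of the 42 genes higher at an adjusted p below 0.05 and 0 lower, where 10% of all genes were called higher and 4.35% lower. That fit pools each manipulation with its control and counts them as 2 libraries of an arm in each line. The labels do not state separate deliveries, so the p-values between the arms given below may rest on fewer independent units than libraries. They are not on a par with those of the paired fits for the manipulations. The pooled fit was chosen as an alternative to the comparison of the controls alone, in which limma called 0 genes of any kind, with 34 of the 42 and 2078 of all 14311 at an unadjusted p below 0.05. The summed level of 8 squamous markers moved with the arm in the other direction. In KYSE70 it was 9446 FPKM in knockdown cells and 7779 FPKM in their control, against 15685 and 12576 FPKM in overexpressing cells and theirs. In KYSE450 it was 13531 and 9782 FPKM in knockdown cells and their control, against 26056 and 18643 FPKM in overexpressing cells and theirs. The sum does not stand for each marker. KRT5, the marker with the most reads in every library, was lower in the lentiviral libraries of both lines, while TP63 was higher in them. TP63 had 20848 and 13123 reads in KYSE70 knockdown cells and their control, against 12927 and 10044 in overexpressing cells and theirs. In KYSE450 it had 29250 and 56590 reads, against 20459 and 14395. The part of these markers in the difference between the arms was not tested. In these libraries the delivery method, and anything else that differed between the arms, cannot be told apart. Among the regulators 3 of 6 were called higher, among the feedback outputs 6 of 6, the secreted factors 2 of 3, the enzymes 6 of 10, the transporters 1 of 5 and the charging and export genes 5 of 12. Of the 42 genes, 10 were called under all 14 settings of this fit, which include leaving out each library: ATF3, TRIB3, VLDLR, ASNS, PSAT1, PCK2, SLC7A11, CARS, GARS and IARS. The other calls were each missing in at least 1 setting. FGF21 and ADM2 were left out by the filter of a mean of 5 FPKM, which counts here as a setting without a call. CHAC1 and EPRS were called in 13 of the 14, CTH in 11, and DDIT3 and DDIT4 in 10 each. PPP1R15A, FGF21, MTHFD2 and SARS were called in 9 each. ADM2 was called in 7, SESN2 and PSPH in 6 each, and CEBPG in 5. The count of called members fell to 11 without the KYSE450 plasmid control, 12 without KYSE70 overexpression and 15 without the KYSE70 plasmid control, while without the KYSE70 knockdown library it was 24. Over all genes, the split of 1432 higher and 623 lower calls became 1071 and 904 with median-ratio scaling, under which 20 members were called, all higher, and 1199 and 1315 with GC and length trends taken out, under which 21 were.

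**Figure D2:**
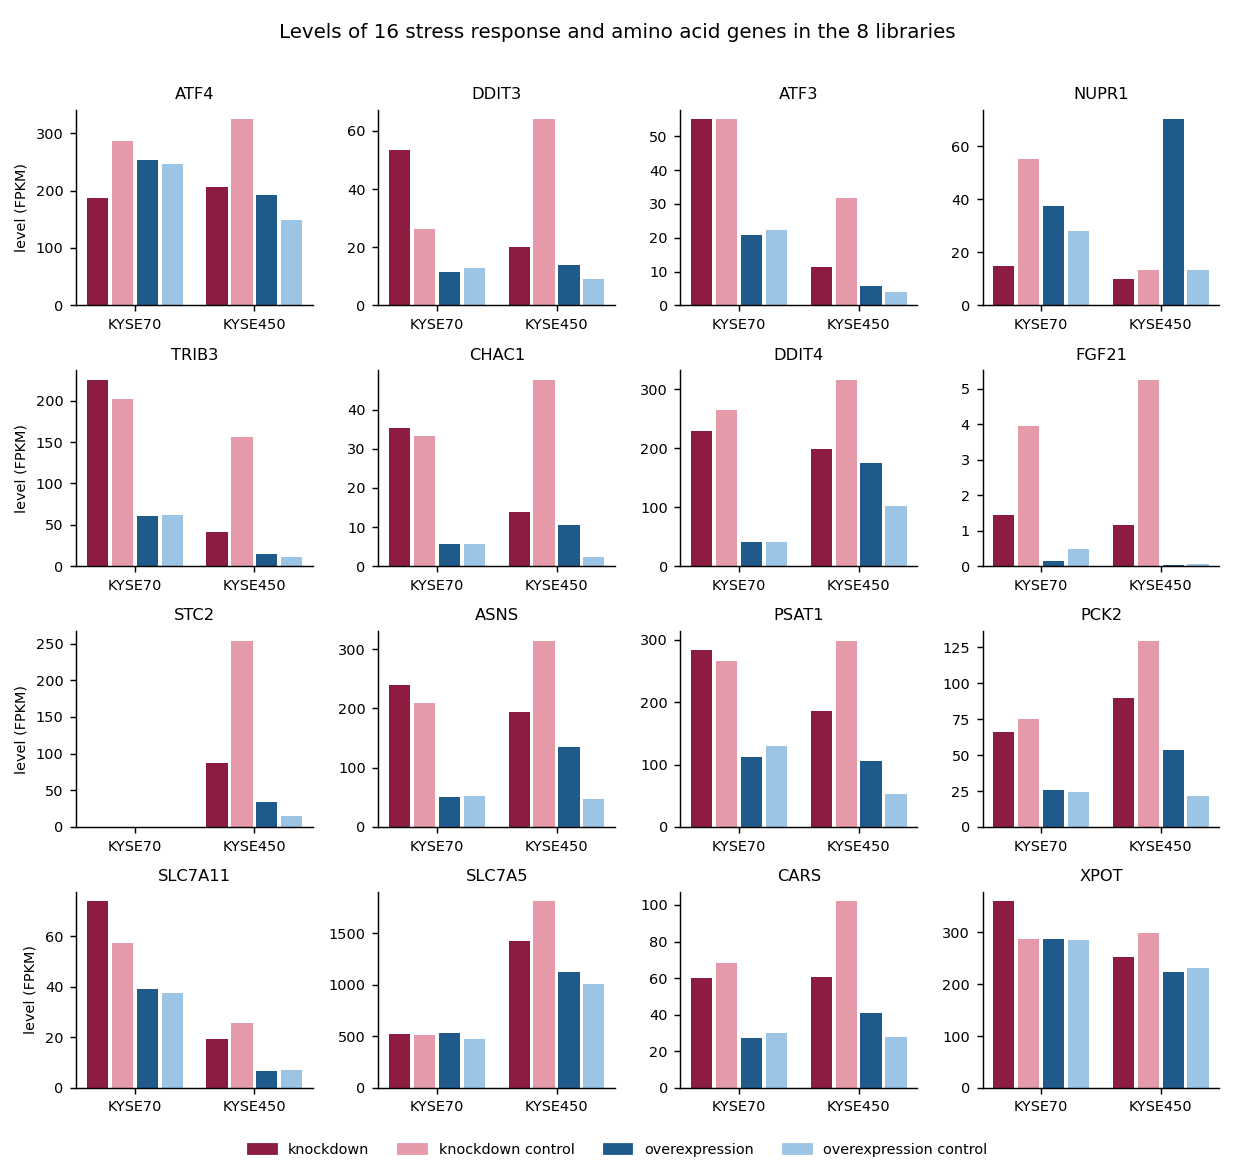
Levels of 16 of the 42 genes in FPKM (y axes, each starting at 0), with 1 bar per library, grouped by cell line (x axes). In KYSE450 the lentiviral control bar is the highest of the 4 for all genes shown except NUPR1, whose highest bar is overexpression at 70.4 FPKM, and the STC2 bars of KYSE70 lie below 0.3 FPKM.

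Among the regulators, the ATF4 mRNA itself differed little between the arms in KYSE70 and more in KYSE450. In KYSE70 it stood at 188 FPKM in knockdown cells and 287 FPKM in their control, and at 254 FPKM in overexpressing cells and 245 FPKM in theirs. The KYSE450 levels were 206 FPKM in knockdown cells and 325 FPKM in their control, and 192 FPKM in overexpressing cells and 149.5 FPKM in theirs. Knockdown cells were thus below their control in both lines, by a fitted 0.63 on the log2(FPKM + 1) scale (log2 difference -0.63 ± 0.15 SE, limma adjusted p = 0.292), while the difference between the controls was 0.67 ± 0.25 (adjusted p = 0.302). ATF3, a stress-induced repressor and partner of ATF4, showed the arms more plainly. It was at 55.1 FPKM in knockdown cells and 55.0 FPKM in their control in KYSE70, against 20.8 FPKM and 22.3 FPKM in overexpressing cells and their control. In KYSE450 ATF3 was at 11.4 and 31.8 FPKM in knockdown cells and their control, against 5.86 and 3.87 FPKM in overexpressing cells and theirs. The arms did not overlap within either line, and ATF3 was higher in the lentiviral libraries by 1.56 ± 0.28 (adjusted p = 0.0119).

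DDIT3, which encodes the pro-apoptotic factor CHOP, went opposite ways under knockdown in the 2 lines. In KYSE70 it was at 53.4 FPKM in knockdown cells and 26.2 FPKM in their control, and at 11.6 and 13.0 FPKM in overexpressing cells and theirs. In KYSE450 it was at 20.1 FPKM in knockdown cells and 64.1 FPKM in their control, and at 13.7 and 9.15 FPKM in overexpressing cells and theirs. Both lentiviral libraries again exceeded both plasmid ones in each line (1.57 ± 0.35, adjusted p = 0.0216). DDIT3 shares 355 exon bases, 27.2% of its exons, with MARS on the opposite strand, and no source used here gives the strand setting of the counting, so reads of MARS, at a mean of 363 FPKM, may be counted in DDIT3 or the reverse. MARS had 353 FPKM in KYSE70 knockdown cells and 517 FPKM in their control. The part of shared reads in the DDIT3 values was not tested.

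NUPR1, a small stress-induced chromatin protein, did not follow the other regulators. In KYSE450 it reached 70.4 FPKM in overexpressing cells, against 13.4 FPKM in their control, the highest overexpression difference of all 14311 genes in that line (2.31 on the log2(FPKM + 1) scale). KYSE450 knockdown cells had 10.0 FPKM and their control 13.5 FPKM. KYSE70 had 37.3 FPKM in overexpressing cells and 27.9 FPKM in their control, and 14.9 FPKM in knockdown cells and 55.3 FPKM in theirs. NUPR1 was therefore above its control with overexpression and below it with knockdown in both lines, but the lines differed in size and no fitted value passed the test (overexpression 1.36 ± 0.47, adjusted p = 1; knockdown -1.11 ± 0.47, adjusted p = 0.40). CEBPB and CEBPG, the C/EBP partners, ranged over 23.2 to 80.5 FPKM and 26.3 to 56.6 FPKM across the 8 libraries; CEBPG was called higher in the lentiviral libraries, in 5 of 14 settings, and CEBPB in 0 of 14.

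The 6 feedback and stress outputs were called higher in the lentiviral libraries, SESN2 in 6 of the 14 settings. CHAC1, which degrades glutathione, was at 35.4 FPKM in knockdown cells and 33.4 FPKM in their control in KYSE70, against 5.66 FPKM in overexpressing cells and 5.67 FPKM in theirs. Its KYSE450 levels were 13.8 FPKM in knockdown cells and 47.6 FPKM in their control, and 10.5 FPKM in overexpressing cells and 2.24 FPKM in theirs. The arms did not overlap in either line, and KYSE450 spread far more than KYSE70 within each arm. The fitted difference between the arms was 2.27 ± 0.43 (adjusted p = 0.0148) and between the controls alone 3.14 ± 0.52 (adjusted p = 0.108).

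TRIB3, a pseudokinase that restrains ATF4, was at 225 FPKM in KYSE70 knockdown cells and 202 FPKM in their control, against 60.2 and 62.2 FPKM in overexpressing cells and theirs. In KYSE450 TRIB3 was at 41.7 FPKM in knockdown cells and 157 FPKM in their control, against 14.9 and 11.6 FPKM in overexpressing cells and theirs. It was higher in the lentiviral libraries by 2.16 ± 0.35 (adjusted p = 0.00973). DDIT4, an inhibitor of the growth kinase mTORC1, had 229 FPKM in knockdown cells and 265 FPKM in their control in KYSE70, against 40.3 and 41.3 FPKM in overexpressing cells and theirs. The KYSE450 libraries were closer for DDIT4, at 198 and 316 FPKM in knockdown cells and their control, against 175 and 103 FPKM in overexpressing cells and theirs. Both arms stayed apart in each line (1.73 ± 0.34, adjusted p = 0.0158). SESN2, which lowers mTORC1 activity when leucine is short, ranged over 4.26 to 20.7 FPKM, and its KYSE450 knockdown level of 5.88 FPKM lay between the overexpression level of 7.47 FPKM and the plasmid control's 4.26 FPKM. PPP1R15A, the phosphatase subunit that reverses eIF2 phosphorylation, ranged over 9.53 to 37.0 FPKM, and VLDLR, a lipoprotein receptor, over 6.14 to 32.6 FPKM.

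The secreted factors were at low levels in KYSE70. FGF21, a metabolic hormone, was at 1.45 FPKM in KYSE70 knockdown cells and 3.96 FPKM in their control, against 0.152 and 0.492 FPKM in overexpressing cells and theirs. In KYSE450 it was at 1.15 FPKM in knockdown cells and 5.25 FPKM in their control, with 1 read in overexpressing cells and 2 reads in theirs. FGF21 was higher in the lentiviral libraries (1.61 ± 0.34, adjusted p = 0.0192), and it was below its control with knockdown in both lines (-1.28 ± 0.20, limma adjusted p = 0.199). It reached the mean of 1 FPKM needed for testing only through its lentiviral libraries, so its call between the arms is not independent of that filter. STC2, a stanniocalcin, was almost silent in KYSE70, where the 4 libraries held 2 to 9 reads of it. In KYSE450 STC2 had 87.4 FPKM in knockdown cells and 254 FPKM in their control, against 33.6 and 14.9 FPKM in overexpressing cells and theirs. ADM2, a peptide of the adrenomedullin family, had 6.10 FPKM in KYSE450 knockdown cells and 15.9 FPKM in their control, against 4.28 and 1.15 FPKM in overexpressing cells and theirs. In KYSE70 ADM2 was between 0.717 and 3.88 FPKM, with the same order of arms (1.45 ± 0.35 over both lines, adjusted p = 0.0277).

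Among the enzymes, 6 of 10 were called between the arms. ASNS, asparagine synthetase, was at 239 FPKM in KYSE70 knockdown cells and 209 FPKM in their control, against 49.8 and 51.9 FPKM in overexpressing cells and theirs. In KYSE450 ASNS was at 194 FPKM in knockdown cells and 314 FPKM in their control, against 136 FPKM in overexpressing cells and 48.0 FPKM in theirs. It was higher in the lentiviral libraries by 1.86 ± 0.30 (adjusted p = 0.00957). PSAT1, which makes phosphoserine, had 284 and 266 FPKM in KYSE70 knockdown cells and their control, against 112 and 129.5 FPKM in overexpressing cells and theirs. The KYSE450 levels of PSAT1 were 185 and 298 FPKM in knockdown cells and their control, against 106 and 52.3 FPKM in overexpressing cells and theirs (arms 1.41 ± 0.24, adjusted p = 0.0105). PCK2, the mitochondrial enzyme that makes phosphoenolpyruvate, differed by 1.55 ± 0.25 (adjusted p = 0.00944), with 21.5 to 53.7 FPKM over the plasmid libraries and 66.1 to 129.7 FPKM over the lentiviral ones.

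The other steps of serine and folate metabolism were less separated. PHGDH, which commits carbon to serine, was highest in KYSE450 overexpressing cells at 283 FPKM, against 168 FPKM in their control, and overlapped between the arms there. PSPH, the last step of serine synthesis, was called higher with a narrow range of 86.6 to 169.9 FPKM; its pseudogene PSPHP1 averaged 86.8 FPKM, 71.8% of PSPH, so reads may be divided between them. SHMT2, the mitochondrial serine hydroxymethyltransferase, had 307 and 377 FPKM in KYSE450 knockdown cells and their control, against 330.1 and 287 FPKM in overexpressing cells and theirs, and was not called. MTHFD2, the next mitochondrial folate enzyme, was called higher, and had 161 and 244 FPKM in KYSE450 knockdown cells and their control, against 76.5 and 66.1 FPKM in overexpressing cells and theirs. ALDH1L2, which oxidises formyl-tetrahydrofolate in mitochondria, was at 58.4 and 46.8 FPKM in KYSE70 knockdown cells and their control, against 21.6 and 21.7 FPKM in overexpressing cells and theirs. In KYSE450 ALDH1L2 was low throughout, at 2.52 and 2.57 FPKM in knockdown cells and their control, and 4.50 and 2.41 FPKM in overexpressing cells and theirs.

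The transsulfuration pair, which makes cysteine from methionine, was unalike. CTH was called higher in the lentiviral libraries, with 14.7 and 29 FPKM in KYSE450 knockdown cells and their control, against 7.57 and 4.52 FPKM in overexpressing cells and theirs. CBS was not called, and stayed between 200.4 and 221 FPKM in KYSE450. In KYSE70 CBS had 50.3 FPKM in knockdown cells and 98.3 FPKM in their control, against 53.7 and 54.0 FPKM in overexpressing cells and theirs, so that the lentiviral control alone stood apart.

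Of the 5 transporters, SLC7A11, the exchanger that brings in cystine for glutamate, was the member called between the arms. It had 73.8 and 57.5 FPKM in KYSE70 knockdown cells and their control, against 39.1 and 37.5 FPKM in overexpressing cells and theirs. The KYSE450 levels were 19.5 and 25.7 FPKM in knockdown cells and their control, against 6.61 and 7.14 FPKM in overexpressing cells and theirs (arms 1.16 ± 0.19, adjusted p = 0.00944). SLC7A5 and SLC3A2, the light and heavy chains of the exchanger for large neutral amino acids, were among the most abundant members, and neither was called. SLC7A5 held 474 to 534 FPKM in the 4 KYSE70 libraries, whereas in KYSE450 it had 1420.3 FPKM in knockdown cells and 1807 FPKM in their control, and 1122 and 1005 FPKM in overexpressing cells and theirs. SLC7A1, the arginine and lysine transporter, was highest in KYSE450 overexpressing cells at 202 FPKM, against 138 FPKM in their control. SLC38A2, a sodium-coupled transporter of small neutral amino acids, had 226 and 330.2 FPKM in KYSE450 knockdown cells and their control, against 223 and 195 FPKM in overexpressing cells and theirs.

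Over the 12 charging and export genes the median difference between the arms was 0.56. All 12 had a fitted difference above 0 between the arms, where 58.2% of all genes did, and CARS, GARS, IARS, EPRS and SARS were called. CARS, which charges cysteine, had 59.9 and 68.3 FPKM in KYSE70 knockdown cells and their control, against 27.2 and 29.8 FPKM in overexpressing cells and theirs. In KYSE450 it had 60.6 and 102 FPKM in knockdown cells and their control, against 41.1 and 27.9 FPKM in overexpressing cells and theirs (arms 1.17 ± 0.18, adjusted p = 0.00837). GARS, which charges glycine, had 581 and 529 FPKM in KYSE70 knockdown cells and their control, against 339 and 354 FPKM in overexpressing cells and theirs (0.92 ± 0.17 over both lines, adjusted p = 0.0122). MARS, which charges methionine, reached 599 FPKM in the KYSE450 lentiviral control and 344 FPKM in knockdown cells, against 266 and 209 FPKM in overexpressing cells and their control, and missed the threshold (0.70 ± 0.21, adjusted p = 0.0562). XPOT, which exports tRNAs from the nucleus, was nearly level in KYSE70 outside the knockdown library, at 360.0 FPKM in knockdown cells and 288 FPKM in their control, and 288 and 285 FPKM in overexpressing cells and theirs.

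**Figure D3:**
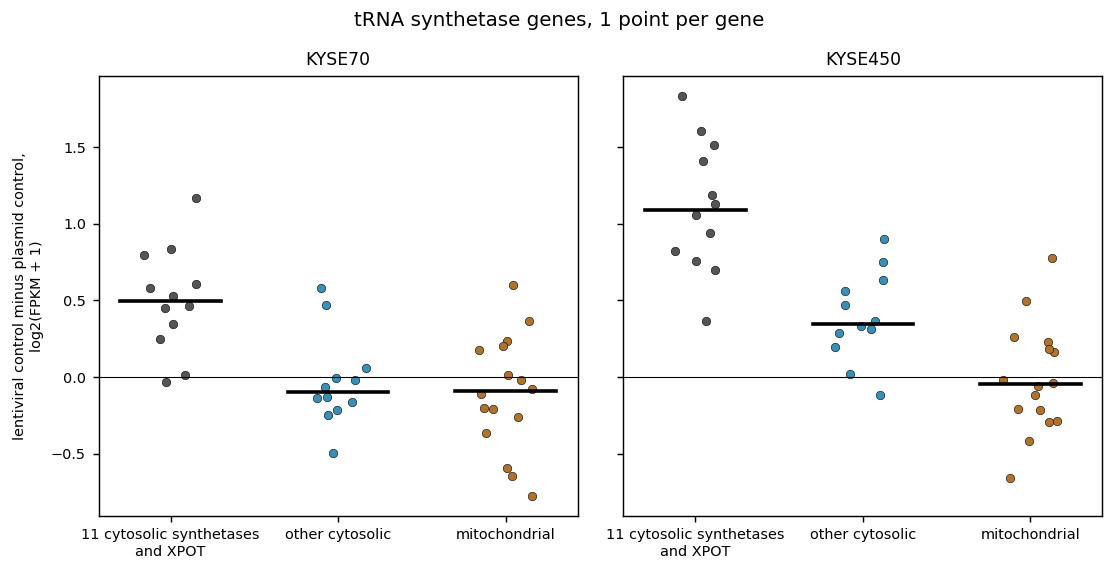
Lentiviral control minus plasmid control in log2(FPKM + 1) (y axis) for each tRNA charging gene, 1 point per gene with the median as a bar, for the 12 members, the 12 other cytosolic synthetase and scaffold genes and the 16 mitochondrial ones (x axis), KYSE70 on the left and KYSE450 on the right. The medians of the members are 0.50 in KYSE70 and 1.09 in KYSE450, against -0.10 and 0.35 for the other cytosolic genes and -0.09 and -0.05 for the mitochondrial ones.

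The remaining synthetases were read beside them. Between the controls, the 12 member genes had a median difference of 0.50 in KYSE70 and 1.09 in KYSE450. The 12 other cytosolic synthetase and scaffold genes had medians of -0.10 and 0.35, and the 16 mitochondrial synthetases -0.09 and -0.05. Between all lentiviral and all plasmid libraries, 5 of the 12 members were called higher, 1 of the 12 other cytosolic genes was (LARS, for leucine) and 0 of the 16 mitochondrial ones. The search letters were found in 7 of 11 members with a window, in 0 of 9 other cytosolic genes and in 1 of 14 mitochondrial ones. Over all members with a window, the measures did not order the genes with and without the letters in 1 way. Between the controls the 14 genes with them had medians of 0.59 in KYSE70 and 1.35 in KYSE450, and the 22 genes without had 0.79 and 1.73. Between the arms the medians were 0.57 and 0.95 with the letters, and 0.63 and 0.88 without. Both lentiviral libraries exceeded both plasmid ones in both lines for 11 of 14 genes with the letters and 15 of 22 without. The members were listed as known targets of the response, so this contrast with other synthetases is a description of the lists and was given no test.

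Knockdown was set against its own control to ask what NMR loss does to these genes. No gene was called by limma in the paired fit (0% of 14311 genes, with 1794 at an unadjusted p below 0.05, 12 of them members). The 2 lines did not give the same answer. In KYSE450 all 42 members were lower in knockdown cells than in their control, where 51.8% of all genes were higher; the median was -0.61. In KYSE70 20 members were higher and 22 lower, with a median of -0.04, and 22 were lower in both lines, against 25.9% of all genes, and 0 higher in both, against 27.1%. The share of all genes higher in KYSE70 was 49.2%. The fitted value over both lines was above 0 for 2 members, against 49.6% of all genes. With GC and length trends taken out, the medians were -0.62 in KYSE450 and -0.02 in KYSE70.

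In KYSE450 several members were near the bottom of all 14311 genes: TRIB3 was at rank 5 from the lowest (-1.88), CHAC1 at rank 8 (-1.72), SESN2 at rank 10 (-1.66), DDIT3 at rank 11 (-1.63) and FGF21 at rank 15 (-1.54). These 5 were picked after their values were seen. The same genes in KYSE70 differed by 0.16 for TRIB3, 0.08 for CHAC1, 0.37 for SESN2, 1.0 for DDIT3 and -1.02 for FGF21, so FGF21 alone of these was lower in both lines. MARS (-0.67 ± 0.16, adjusted p = 0.288) and ATF4 were below their control by similar sizes in both lines, at -0.55 and -0.61 in KYSE70 and -0.80 and -0.65 in KYSE450. CBS differed mainly in KYSE70, by -0.95 against -0.09 in KYSE450. Each such difference is 1 library minus 1 library. The KYSE70 differences come from the pair whose difference fell with GC content (Spearman rho -0.483, against 0.0422 in KYSE450). The part of that trend in single genes was not tested.

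**Figure D4:**
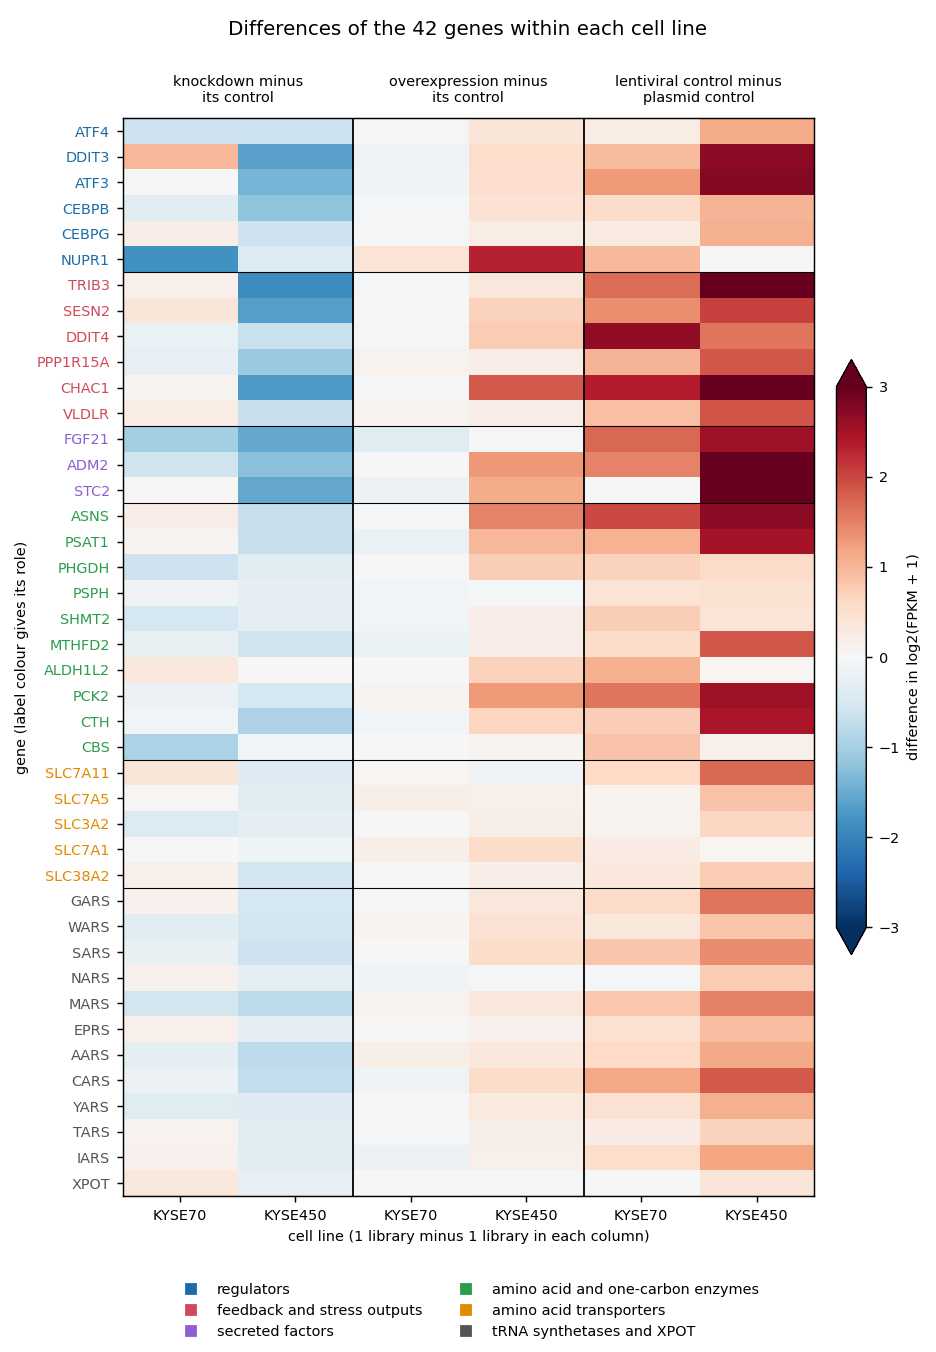
Differences in log2(FPKM + 1) for each of the 42 genes (rows, ordered by role) in each cell line (columns), for knockdown minus its control, overexpression minus its control, and lentiviral control minus plasmid control; red is higher, blue lower, and the colour scale ends at 3, beyond which TRIB3, CHAC1 and STC2 lie in the KYSE450 controls. The KYSE450 knockdown column is below 0 for all 42 genes, the KYSE70 one for 22, and the column of the KYSE450 controls is above 0 for all 42.

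Overexpression was set against its control in the same fit. No gene was called (0% of 14311, with 148 at an unadjusted p below 0.05, 3 of them members). The fit shares its spread with the knockdown pairs, which differed more between the lines (median 0.349, against 0.160 for overexpression). Fitting the 4 plasmid libraries alone called 12 genes and 0 members, so the absence of calls does not show that overexpression had no effect. In KYSE450 37 members were higher in overexpressing cells, where 44.2% of all genes were, with a median of 0.34. In KYSE70 15 were higher, where 50.8% of all genes were, with a median of -0.01. The fitted value was above 0 for 36 members, against 46.5% of all genes. Besides NUPR1, the KYSE450 differences were led by CHAC1 at rank 3 from the highest of all genes (1.83) and ASNS at rank 13 (1.48), and PCK2 differed by 1.28. In KYSE70 the same genes differed by -0.00 for CHAC1, -0.06 for ASNS and 0.08 for PCK2. The fitted values over both lines were 0.91 ± 0.51 for CHAC1, 0.71 ± 0.36 for ASNS and 0.68 ± 0.27 for PCK2, each with an adjusted p of 1.

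In KYSE450 the 4 libraries therefore fell into a common order for most members: the lentiviral control highest, then knockdown, then overexpression, then the plasmid control. This order held for 28 of the 42 genes, against 9.48% of all genes, in KYSE450, and for 6 of the 42, against 7.58%, in KYSE70. It was noticed in the values before it was counted. For those 28 genes, both manipulated KYSE450 libraries lay between the lentiviral and the plasmid control.

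The controls were compared because they differ in vector and delivery but carry no manipulation of NMR per the labels. Of the 42 genes, 41 were higher in the lentiviral control than in the plasmid control in both lines, where 37.1% of all genes were. All 42 had a fitted value above 0, against 57.7% of all genes; by line, 41 were higher in KYSE70, against 62.6%, and 42 in KYSE450, against 49.9%. The median was 0.71 in KYSE70 and 1.30 in KYSE450, against 0.12 and -0.00 over all genes. The exception was NARS, which charges asparagine, at -0.03 in KYSE70 and 0.76 in KYSE450. In KYSE70 DDIT4 was at rank 6 of all genes from the highest (2.65), and in KYSE450 STC2 was at rank 10 (4.01) and CHAC1 at rank 11 (3.91). With 2 controls on each side, no member passed the test: FGF21 came closest (2.14 ± 0.25, adjusted p = 0.0787), then PCK2 (2.07 ± 0.28, adjusted p = 0.0964). FGF21 passed the filter for testing only through its level in the lentiviral libraries. With GC and length trends taken out, the KYSE70 median was 0.52 and 6 members were lower, in place of 0.71 and 1. These differences share their control libraries with both manipulations.

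**Figure D5:**
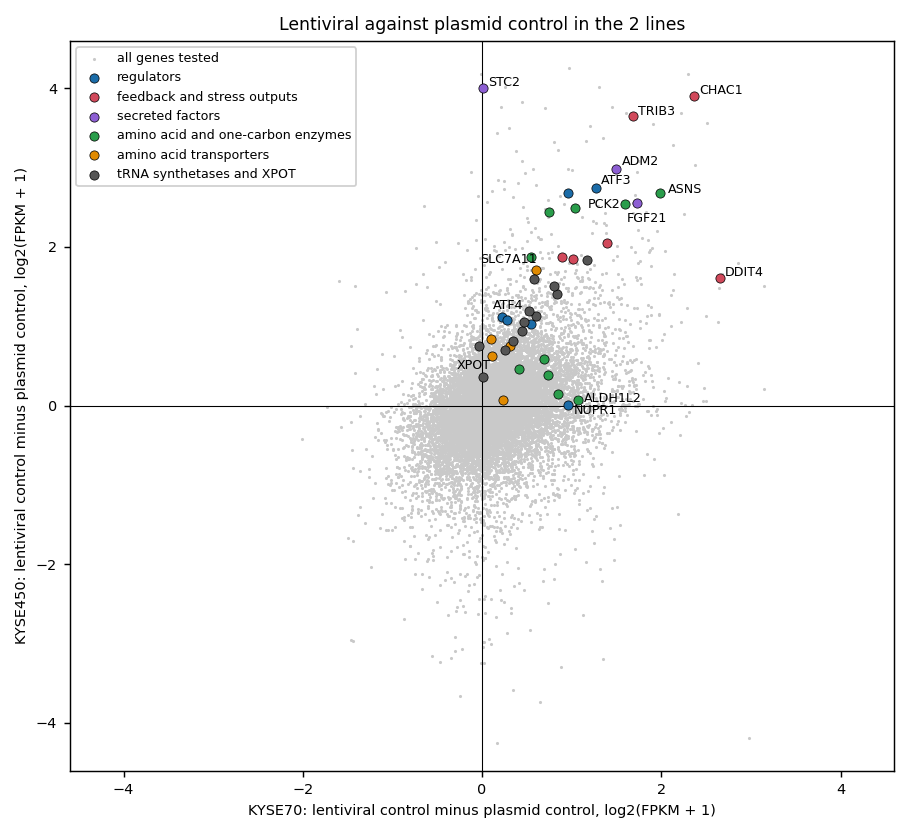
Lentiviral control minus plasmid control in log2(FPKM + 1), KYSE70 on the x axis and KYSE450 on the y axis, with all tested genes in grey (6 lie outside the axes) and the 42 genes coloured by role. All members but NARS lie above 0 on both axes, with CHAC1 at 2.37 and 3.91, DDIT4 at 2.65 and 1.61, and STC2 at 0.01 and 4.01.

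The cell lines differed in many of these genes, as in genes at large. KYSE70 against KYSE450 gave 20 called members, 10 higher (26.6% of all genes) and 10 lower (27.4%), with 54% of all genes called in either direction. The fitted value was above 0 for 24 members, against 49.1% of all genes. Among the members STC2 had the largest difference (-5.67, adjusted p = 0.000235) and ALDH1L2 the largest in the other direction (3.15, adjusted p = 0.000294). SLC7A11 (1.91, adjusted p = 0.000404), TRIB3 (1.76, adjusted p = 0.0039) and ATF3 (1.72, adjusted p = 0.00133) were higher in KYSE70. CTH (-1.84, adjusted p = 0.00127), CBS (-1.76, adjusted p = 0.000186) and SLC7A5 (-1.36, adjusted p = 0.000834) were lower in KYSE70. ATF4 itself did not pass (0.20 ± 0.18, adjusted p = 0.376). All 5 transporters were called, SLC7A11 and SLC38A2 higher in KYSE70, and SLC7A5, SLC3A2 and SLC7A1 lower. The cystine exchanger and the enzymes that make cysteine inside the cell therefore stood on opposite sides between the lines.

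Whether the arm difference itself depended on the line was tested with an interaction of arm and cell line. Treatment was ignored, so a treated library and its control counted as 2 libraries of an arm. Limma called 2 of the 42 genes, both higher, where 6.88% of all genes were called, 5.28% higher and 1.6% lower. The fitted value was above 0 for 13 members, against 58.9% of all genes. DDIT4 was further apart in KYSE70 than in KYSE450 by 1.67 ± 0.40 (adjusted p = 0.0461) and ALDH1L2 by 1.52 ± 0.32 (adjusted p = 0.0323). STC2 differed the other way by -2.56 ± 0.69 and missed the threshold (adjusted p = 0.0643). The median over the members was -0.21, against 0.12 over all genes; with median-ratio scaling the medians were -0.34 and 0.02, 1 member was called, and the split of 755 higher and 229 lower calls among all genes became 568 and 342, and 742 and 696 with GC and length trends taken out.

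Other genes of the pathway were read between the arms beside the 10% of all genes called higher and the 4.35% called lower. Of 16 other outputs linked to ATF4, 8 were called higher and 1 lower. GADD45A, a growth arrest gene, had 154 and 336 FPKM in KYSE70 knockdown cells and their control, against 128 and 102 FPKM in overexpressing cells and theirs. GDF15, a secreted stress factor, was below its control with knockdown (-1.76 ± 0.31, limma adjusted p = 0.250), as was GADD45A (-0.95 ± 0.15, adjusted p = 0.199), and SESN3, a relative of SESN2, was above it (1.12 ± 0.19, adjusted p = 0.239). Between the controls GADD45A (1.66 ± 0.16, adjusted p = 0.0787), INHBE (2.14 ± 0.30, adjusted p = 0.0964) and VEGFA (2.11 ± 0.33, adjusted p = 0.107) had the smallest p-values of that list and did not pass. ATF5, a relative of ATF4 that was picked after its values were seen, was the gene called lower, with 9.99 and 8.46 FPKM in KYSE70 knockdown cells and their control, against 29.1 and 24.6 FPKM in overexpressing cells and theirs. Of 15 genes for eIF2, its kinases and its exchange factor, 3 were called higher and 1 lower. Of 16 genes of the IRE1 and ATF6 branches, which respond to unfolded protein in the endoplasmic reticulum, 5 were called higher and 0 lower. Among the 16, HERPUD1 and HSPA5 were also picked after their values were seen. They had 190.0 and 386 FPKM in the KYSE70 knockdown library, against 39.1 and 149 FPKM in its control. DDIT3 also exceeded its control in that library. Other genes of the list went the other way in the same pair, with MANF at -0.60 and SDF2L1 at -0.74. In all, 10 of the 16 were higher in the KYSE70 knockdown library, against 49.2% of all genes. The part of these branches in the DDIT3 difference was not tested. Of 11 other amino acid transporters, 1 was called higher (SLC43A1) and 2 lower, and of 15 other enzymes, 3 higher and 1 lower, with GLUL, glutamine synthetase, at 204 and 308 FPKM in KYSE70 knockdown cells and their control, against 149 and 118 FPKM in overexpressing cells and theirs.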

How the data were processed

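Per the submitters' processing notes, TopHat2 2.0.9, HTSeq 0.6.1 and the build hg19 were used. The deposited table holds 1 value per gene and library. The unit, FPKM, was inferred from the values the authors deposited. Whole reads could be recovered from them for all 30872 genes above 0 in at least 2 libraries (100%, within 0.02 reads). For genes above 0 in few libraries almost any values would give whole reads, so the 100% is no test for them. The smallest matching counts were kept, so a factor common to all libraries would be lost. One read per kilobase was worth 0.0264 to 0.0379 FPKM. No source used here gives the strand setting or the annotation version.

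Values were taken as log2(FPKM + 1), so differences of low genes are understated. Genes with a mean of at least 1 FPKM (14311) were fitted with limma 3.58.1 in R 4.3.3, with a mean-dependent variance trend and Benjamini-Hochberg adjustment over all of them, at a threshold of 0.05. Knockdown and overexpression were each fitted against their own control with the cell line as the pair, because each condition was made once in each line. Both came from 1 fit of all 8 libraries and shared 1 estimate of the spread for each gene. The median absolute difference between the changes in the 2 lines was 0.349 for knockdown and 0.160 for overexpression. The controls, the arms and the cell lines were fitted with additive terms, and the dependence of the arm on the line as an interaction. Fits were tested on simulated data. Alternatives were another pseudocount (0.1), another filter (none, or a mean of 5), median-ratio scaling, removal of GC and length trends, other terms, and leaving out each library. Those applied to the fit of all 4 lentiviral against all 4 plasmid libraries were chosen after seeing the data. Members and lists were chosen with earlier results of these data known. All 42 members are reported; those given fitted values were chosen after their values were seen. Of the other lists, the rule was to name the 3 genes with the smallest p for knockdown and between the controls; they are named in the text for the ATF4-linked list, and for other lists only where a value is given. Promoter sequences are RefSeq, GRCh38.p14, and were matched to members by Entrez gene identifier; no coordinates were converted.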

Additional observations from a re-analysis of the deposited data

Results flagged for a closer look

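Limma's interaction test called 2 of the 42 genes for a difference between lentiviral and plasmid libraries that depended on the cell line. Of all genes, 6.88% were called. That test ignored treatment; with a term for it 1 member was called, and with no filter 0. DDIT4 was further apart in KYSE70 than in KYSE450 by 1.67 on the log2(FPKM + 1) scale (adjusted p = 0.0461), and ALDH1L2 by 1.52 (adjusted p = 0.0323). Under knockdown, 20 members lay above their control in KYSE70, where 49.2% of all genes did. All 42 lay below it in KYSE450, where 51.8% of all genes were higher. For 3 of the 20, both differences were at least 0.3 in size. The difference between the lines was not tested. DDIT3 differed by 1.0 in KYSE70 and -1.63 in KYSE450, SESN2 by 0.37 and -1.66, and SLC7A11 by 0.35 and -0.38. The KYSE70 values rest on the knockdown library with the highest mitochondrial share, whose difference from its control fell with GC content.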

How the results depend on the processing

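Of 795 values under alternatives, 692 kept their direction and call, 54 became stronger, 36 weaker and 13 reversed. A value that stayed uncalled in the same direction counts as kept. Of the 56 fitted values behind these, 20 kept direction and call under all alternatives. With no replicate block, limma called 0 genes for overexpression, 0 for knockdown and 0 between the controls. Fitting the 4 libraries of an arm alone called 12 genes for overexpression, and 37 genes and 1 member for knockdown, where a pseudocount of 0.1 called 3 genes. The planned count model on recovered reads was not run, since the values are FPKM. Leaving out each library gave 0 to 12 genes and 0 to 1 members for overexpression, 36 to 4833 genes and 1 to 21 members for knockdown, and 0 to 11 genes and 0 to 3 members between the controls. Without a knockdown library or its control 1 knockdown pair is left, and its spread is taken from the overexpression pairs; the counts were 580 and 582 without the KYSE70 knockdown library and its control, and 4833 and 4832 without those of KYSE450. All 4 lentiviral against all 4 plasmid libraries gave 2055 genes and 23 members; with no filter this fit called 721 genes and 11 members, and leaving out each library 484 to 2504 genes and 11 to 24 members. Between cell lines 13 members were called with no group term. The interaction called 118 genes and 0 members with no filter, 515 genes and 1 member at a mean of 5 FPKM, 1 member with median-ratio scaling, 4 with GC and length trends removed, 1 with a term for treatment, and 36 to 5244 genes and 0 to 7 members leaving out each library. Reversals came from leaving out libraries: for knockdown, CHAC1 ranged over -1.72 to 0.083, DDIT3 over -1.63 to 1.0, STC2 over -1.53 to 0.030 and TRIB3 over -1.88 to 0.16; for overexpression, ASNS ranged over -0.058 to 1.48 and CHAC1 over -0.0011 to 1.83; between controls, XPOT ranged over -0.030 to 0.41. For knockdown and overexpression, leaving out 1 library of a pair leaves only the pair of the other line. Each end of those ranges is therefore the difference within 1 line. Why the lines differed was not tested, nor was the cause of the XPOT reversal. One library per line and condition limits every comparison; low genes such as FGF21, with 1 to 219 reads, are limited by depth.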
